A study of Mus musculus with 19 samples.

Results

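The subject here is the Slc25 family of solute carriers in mouse liver, as RNA levels in 19 sequencing libraries. Rows of the count table with a symbol of the form Slc25a and a number came to 47 of 24421. Slc25a15 and Slc25a20 were not analysed here, and Slc25a31, Slc25a41, Slc25a43 and Slc25a54 held fewer than 50 counts over all libraries, which left 41 members. Of these, 39 passed the filter on low counts and were tested; Slc25a2 and Slc25a18, with totals of 68 and 84 counts, were not. The choice used symbols and total counts, not differences between groups.

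All livers came from mice given repeated injections, 2 per week over 3 weeks, of an ASO (antisense oligonucleotide, a synthetic strand that base-pairs with 1 RNA and depletes it), on a purified normal diet. The ASO was either a control or was aimed at Plin5, whose protein, perilipin 5, coats lipid droplets and contacts mitochondria. After an overnight fast, one set of livers was taken and another set followed after 4 h of re-feeding. This gave 4 libraries for fasted control ASO (numbered 1, 3, 4 and 5) and 5 each for fasted PLIN5 ASO, re-fed control ASO and re-fed PLIN5 ASO. Strain, sex and age are not in the labels, a single PLIN5 ASO is named, and no un-injected group is part of the design. Whether the replicates were separate animals is not stated, so p-values measure the spread between these libraries, which may be technical.

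SLC25 proteins sit mostly in the inner mitochondrial membrane, which is otherwise closed to metabolites. Each binds its substrate from one side and releases it on the other, often in exchange for a second substrate. In liver they link cytosolic and mitochondrial steps of urea synthesis, gluconeogenesis, lipogenesis and the transfer of reducing equivalents, and they supply mitochondria with phosphate, adenine nucleotides, cofactors and iron.

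For orientation, 4 promoters of members described further on are printed, from 250 bases before to 50 bases after the RefSeq transcript start (GRCm38.p6), read 5′ to 3′ on the gene's strand. They were chosen from the members that differed between re-fed and fasted liver, as the citrate carrier that rose and the coenzyme A, dicarboxylate and pyrimidine nucleotide carriers that fell. Capitals mark the E-box CACGTG, the CCAAT box CCAAT and the GC box GGGCGG on either strand. The 4 regions are chr16:17928170-17928469, minus strand for Slc25a1, chr8:70212232-70212531, minus strand for Slc25a42, chr11:120491587-120491886, plus strand for Slc25a10 and chr4:149774218-149774517, minus strand for Slc25a33.
Slc25a1: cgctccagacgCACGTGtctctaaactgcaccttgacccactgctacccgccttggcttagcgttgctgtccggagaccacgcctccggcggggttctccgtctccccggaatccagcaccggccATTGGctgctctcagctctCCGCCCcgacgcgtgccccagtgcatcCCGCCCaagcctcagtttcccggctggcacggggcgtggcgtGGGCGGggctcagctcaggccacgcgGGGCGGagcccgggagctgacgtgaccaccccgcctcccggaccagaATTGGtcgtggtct
Slc25a42: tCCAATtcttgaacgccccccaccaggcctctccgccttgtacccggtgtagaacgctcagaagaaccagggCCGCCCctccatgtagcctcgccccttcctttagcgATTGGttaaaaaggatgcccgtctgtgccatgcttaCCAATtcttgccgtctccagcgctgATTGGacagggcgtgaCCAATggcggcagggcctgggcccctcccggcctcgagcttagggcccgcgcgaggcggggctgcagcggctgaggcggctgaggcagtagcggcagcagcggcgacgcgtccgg
Slc25a10: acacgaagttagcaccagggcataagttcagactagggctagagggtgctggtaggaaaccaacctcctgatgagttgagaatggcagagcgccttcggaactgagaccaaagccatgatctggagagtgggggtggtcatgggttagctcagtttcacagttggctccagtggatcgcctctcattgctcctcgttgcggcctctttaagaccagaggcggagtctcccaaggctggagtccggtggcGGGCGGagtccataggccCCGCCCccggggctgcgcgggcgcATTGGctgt
Slc25a33: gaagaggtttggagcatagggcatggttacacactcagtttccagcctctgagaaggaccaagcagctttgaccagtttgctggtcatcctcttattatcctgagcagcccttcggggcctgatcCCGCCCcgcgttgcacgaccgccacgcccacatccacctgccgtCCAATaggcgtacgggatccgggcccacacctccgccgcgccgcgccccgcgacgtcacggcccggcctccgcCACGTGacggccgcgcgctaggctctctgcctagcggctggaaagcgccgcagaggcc

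The Slc25a1 window held 1 E-box, 2 CCAAT boxes and 4 GC boxes, and the Slc25a42 window held 5 CCAAT boxes and 1 GC box. A RefSeq promoter was matched for 31 of the 41 members. These have 40 promoters in the table, since some genes have more than 1 start. CACGTG was in 6 of the 40, against 7.15% of all 32851 promoters. CCAAT was in 22 (37.4% of all promoters) and GGGCGG in 33 (35.7% of all promoters). The cAMP response element TGACGTCA was in 2, the forkhead motif GTAAACA in 0 and the sterol response element TCACNCCAC in 1, against 1.79%, 3.65% and 1.24% of all promoters; all were searched on both strands. Matches of different motifs may share letters, and a match describes letters only, not a site in use.

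Total counts per library ran from 24.9 to 66.9 in units of 1000000, with re-fed PLIN5 ASO 5 the deepest. Plin5 was at 35.1 to 38.5 CPM (counts per 1000000 of the TMM-scaled library) in fasted control ASO against 6.14 to 13.1 in fasted PLIN5 ASO, and at 27.3 to 51.8 against 3.91 to 11.8 in the re-fed groups, with no overlap. Hepatocyte markers (4 of 5 listed were in the table, Alb among them) summed to 77490 to 147100 CPM. Adipocyte and striated muscle markers summed to at most 0.747 and 0.1501 CPM in any library. Kupffer cell and macrophage markers (all 5 detected in every library) summed to 64.3 to 200.6 CPM and were highest in fasted PLIN5 ASO 3 and 5, at 200.6 and 144 CPM. In whole liver, fewer cells of a type and less RNA per cell cannot be told apart. Fasted control ASO 3 and 4 lay closer to each other than any other libraries of a group: their counts gave a chi-square of 3.205 per degree of freedom, and the next closest pair 18.4.

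Libraries 3 and 5 of fasted PLIN5 ASO and of re-fed control ASO stood apart in clock genes and are called clock-shifted from here. Arntl, a core clock activator, was at 14.6 to 45.0 CPM in them and at 0.566 to 4.87 CPM in the other libraries. Some carriers also differed between these libraries and the others of their group. In fasted PLIN5 ASO both clock-shifted libraries lay below the other 3 for 13 of the 41 members and above them for 6, and in re-fed control ASO below for 14 and above for 5. The share over all genes was not computed, so these counts are not shown to be particular to the carriers. They include members near the floor, such as Slc25a18, which was above in both groups. Calls gained or lost without these 4 libraries are given both ways.

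By level per transcript length, 3 carriers made up 50.2% of the summed FPKM (fragments per kilobase, depth-scaled) of the 41 members. Slc25a47, a carrier found mainly in liver, averaged 451 FPKM (271 to 573 over 19 libraries). Slc25a39, the glutathione carrier, averaged 363 FPKM (280.0 to 429) and Slc25a5, the adenine nucleotide translocase that exchanges ATP for ADP, 274 FPKM (230 to 331). These ranks were stable at the top: Slc25a39 was above Slc25a5, and Slc25a5 above the next member, in 19 of 19 libraries, while Slc25a47 was above Slc25a39 in 15.

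Next came Slc25a1, which exports citrate, at 158 FPKM, and the calcium-regulated ATP-Mg/phosphate carriers Slc25a23 and Slc25a25 at 153 and 129 FPKM. Slc25a1 and Slc25a23 were not separated, with Slc25a1 the higher in 9 of 19 libraries. Slc25a3, the phosphate carrier, closed the members above 100 FPKM at 124 FPKM. The first 7 members held 76.2% of the summed FPKM; 14 members lay between 10 and 100 FPKM, 13 between 1 and 10, and 7 below 1.

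Related carriers differed widely in level. Slc25a13 (citrin), the aspartate/glutamate carrier of liver, averaged 73.7 FPKM and its muscle and brain relative Slc25a12 4.24 FPKM. The adenine nucleotide translocase Slc25a4, the main form in heart and muscle, was at 3.63 FPKM beside 274 for Slc25a5. These translocases are close copies, and no source used here says how reads common to both were assigned, so the split between them is uncertain. The glutamate carrier Slc25a22 was at 83.4 FPKM, while its relative Slc25a18 was listed at 0 in most libraries and reached 0.0536 FPKM. Both mitoferrins, which import iron, were at similar levels: Slc25a28 averaged 15.2 FPKM and Slc25a37 12.8 FPKM.

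**Figure D1:**
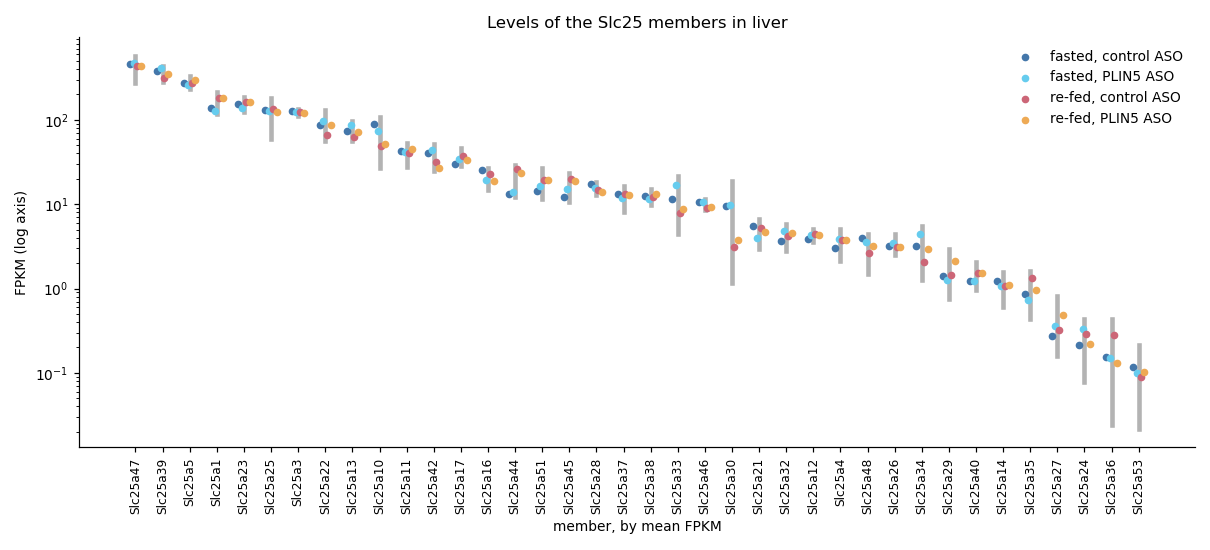
FPKM on a log axis for 38 of the 39 members above 0 in every library, ordered by mean over 19 libraries; coloured points are the means of the 4 groups and grey bars span the lowest to the highest library. Levels run from 451 FPKM for Slc25a47 to 0.102 FPKM for Slc25a53, and for most members the group means lie close together relative to that range.

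Members also differed in how tightly replicates held. The within-group coefficient of variation, averaged over the 4 groups, was 5.22% for Slc25a3, 7.37% for Slc25a46 and 7.86% for Slc25a39. It was 22.1% for Slc25a10, 22.2% for Slc25a47, 25.2% for Slc25a25 and 55.1% for Slc25a30. So the same fold change was measured with unlike precision in different carriers. Together the members took 0.415% to 0.499% of all counts.

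The first question was what lowering Plin5 did to these carriers. In fasted liver, PLIN5 ASO against control ASO, 0 of 39 members passed the test at an adjusted p of 0.05 (edgeR quasi-likelihood test, Benjamini-Hochberg over 13293 genes), where 1.17% of all genes tested did. At an unadjusted p under 0.05 there were 6 members (15.4%, against 15.1% of all genes tested). DESeq2 called 2, Slc25a16 and Slc25a21, where it called 3.12% of all genes it tested. The median log2 fold change was -0.01 over the members and 0.01 over all genes tested. The same libraries of fasted control ASO serve here and in the re-feeding comparison under control ASO. Stellate cell and fibroblast markers, all 5 detected in every library, summed to 117 to 151 CPM in fasted control ASO and 150.0 to 224 CPM in fasted PLIN5 ASO, and Kupffer cell and macrophage markers to 72.7 to 86.0 and 75.3 to 200.6 CPM. Among the stellate markers Dcn averaged 78.8 and 111 CPM, and Reln 25.8 and 27.3 CPM. Sinusoidal endothelial markers were lower on average with PLIN5 ASO, at 77.6 to 104.5 and 69.1 to 95.6 CPM. The part of these cell types in the fasted differences was not tested.

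Slc25a16, a carrier linked to coenzyme A, was at 80.2, 86.8, 83.6 and 81.9 CPM in fasted control ASO and at 65.5, 74.5, 46.4, 74.6 and 56 CPM in fasted PLIN5 ASO. Every PLIN5 ASO library lay below every control library, and the lowest 2 were the clock-shifted ones. The log2 difference was -0.39 (SE 0.11, adjusted p = 0.0983), and -0.22 (adjusted p = 0.218) without the 4 clock-shifted libraries.

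Slc25a21, the oxodicarboxylate carrier of lysine and tryptophan breakdown, was at 12.3, 14.4, 11.8 and 12.6 CPM in fasted control ASO and 6.22, 10.4, 8.54, 10.6 and 7.75 CPM in fasted PLIN5 ASO. These groups did not overlap either. Its log2 difference was -0.55 (SE 0.16, adjusted p = 0.0984) and stayed at -0.49 (adjusted p = 0.227) without the clock-shifted libraries. Both genes were singled out after their values were seen, because DESeq2 called them.

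Citrin was higher with PLIN5 ASO without passing the test. Slc25a13 was at 245, 241, 254 and 216 CPM in fasted control ASO and at 299, 308, 246, 308 and 260.5 CPM in fasted PLIN5 ASO, where 4 of 5 libraries lay above every control. The log2 difference was 0.25 (SE 0.09, adjusted p = 0.164). With the 4 clock-shifted libraries left out it was 0.35 and passed the test (adjusted p = 0.0437). Slc25a13 was the single member to pass in that fit, where 0.866% of all genes did.

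For some carriers with closely held replicates the intervals were narrow. The 95% interval of the fasted log2 difference was -0.32 to 0.06 for Slc25a1, -0.09 to 0.30 for Slc25a39, -0.19 to 0.14 for Slc25a46 and -0.11 to 0.26 for Slc25a44, so changes beyond these bounds lie outside the intervals. For Slc25a10 the interval was wide, -0.81 to 0.20, and its estimate of -0.30 became -0.01 without the clock-shifted libraries. For Slc25a30 the interval ran -0.99 to 1.08, wide enough to hold a 2-fold difference upward and nearly as much downward.

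In re-fed liver 0 of 39 members passed the test for PLIN5 ASO against control ASO, where 1.38% of all genes tested did. At an unadjusted p under 0.05 there were 5 members (12.8%, against 19% of all genes tested). DESeq2 called 1, Slc25a36, where it called 5.18% of all genes it tested. The median log2 difference was 0.02 over the members and -0.01 over all genes. The number of members positive in both feeding states or negative in both was 20 of 39, and these comparisons share no library. The share over all genes was not computed for this count.

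Slc25a36, a pyrimidine nucleotide carrier needed for mitochondrial DNA and RNA upkeep, was at 1.43, 1.29, 0.835, 0.918 and 1.27 CPM with control ASO and at 0.228, 0.739, 0.470, 0.656 and 0.597 CPM with PLIN5 ASO, both re-fed. The groups did not overlap in CPM. In FPKM they did, with re-fed PLIN5 ASO 4 at 0.1897 and re-fed control ASO 3 at 0.172. The reads are few: 40, 35, 25, 29 and 37 counts against 6, 17, 13, 18 and 41 counts. The log2 difference was -1.08 (SE 0.30, adjusted p = 0.0737), and -1.16 (adjusted p = 0.12) without the clock-shifted libraries. It was the single member with a difference of at least 2-fold between the ASOs in re-fed liver.

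The glutamate carrier Slc25a22 was at 177, 199, 173, 208 and 159 CPM with control ASO and 273, 216, 218, 227 and 263 CPM with PLIN5 ASO in re-fed liver. All 5 PLIN5 ASO libraries were above all 5 controls, yet the log2 difference of 0.39 (SE 0.15, adjusted p = 0.175) did not pass. In fasted PLIN5 ASO the same gene was at 352 and 354 CPM in the clock-shifted libraries and at 193 to 215 CPM in the other 3. Its fasted estimate accordingly moved from 0.15 to -0.21 when the 4 clock-shifted libraries were left out, and passed the test in neither fit.

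**Figure D2:**
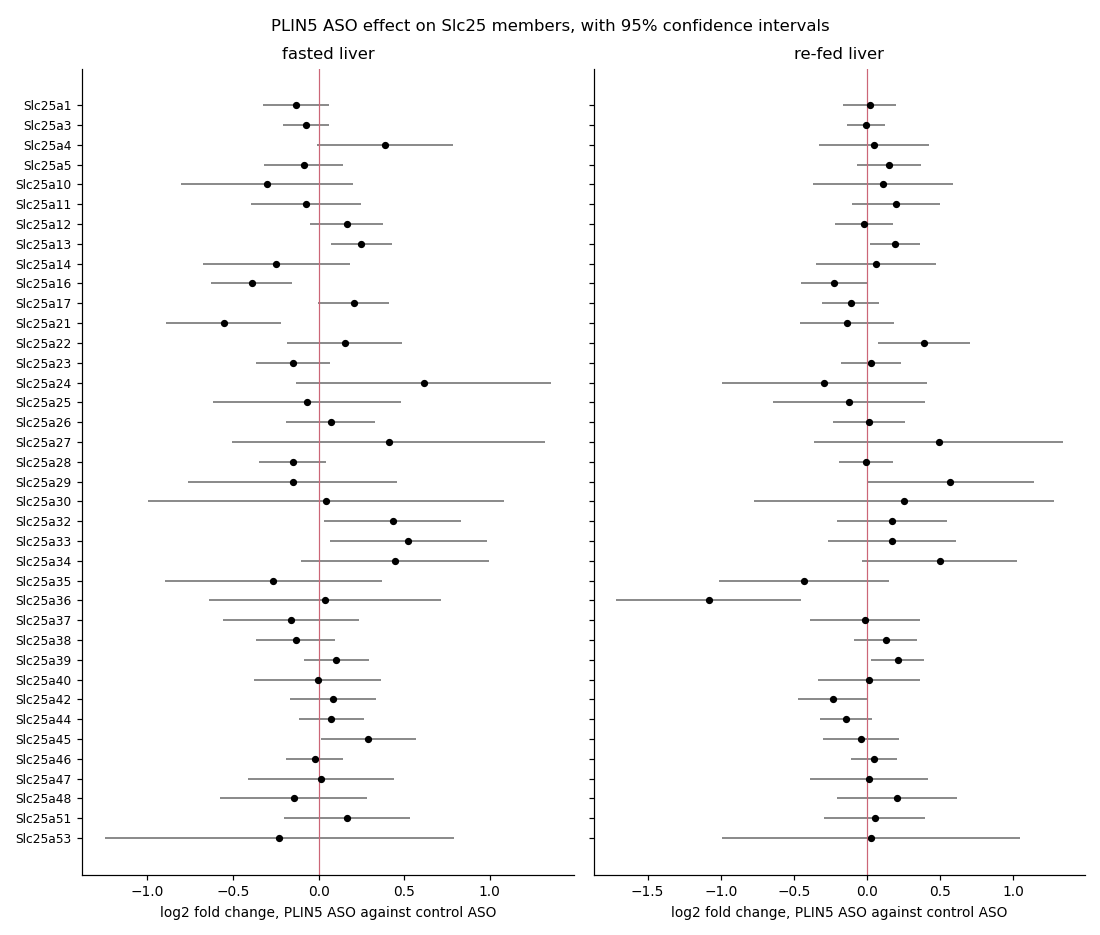
Log2 fold change of PLIN5 ASO against control ASO for 38 of the 39 tested members in fasted (left) and re-fed liver (right); points are edgeR estimates and bars their 95% confidence intervals, on axes of unlike width. No member passed the adjusted threshold in either state, and Slc25a36 lay farthest from 0 in re-fed liver at -1.08.

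Re-feeding was the larger contrast. Under control ASO, 8 of 39 members passed the test between re-fed and fasted liver (20.5%), where 13.2% of all genes tested did. Slc25a1, Slc25a44 and Slc25a45 rose, with 6.42% of all genes called higher. Slc25a10, Slc25a30, Slc25a39, Slc25a42 and Slc25a46 fell, with 6.82% of all genes called lower. The member medians were near the background, at -0.09 against 0.03 on the log2 scale, and at an unadjusted p under 0.05 there were 16 members (41.0%, against 28.8% of all genes tested). With fasted control ASO 3 and 4, the closely alike libraries, summed into a single library, 6 members were called, without Slc25a39 and Slc25a46, beside 8.47% of all genes in that fit.

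Under PLIN5 ASO, 5 of 39 members passed (12.8%), where 8.64% of all genes tested did. Slc25a1 and Slc25a44 rose again (4.50% of all genes were called higher), and Slc25a13, Slc25a33 and Slc25a42 fell (4.14% of all genes were called lower). The medians were -0.04 and 0.00, and 13 members (33.3%) had an unadjusted p under 0.05, against 23.5% of all genes tested. The re-feeding contrasts under the 2 ASOs share no library. Slc25a1, Slc25a42 and Slc25a44 were called in both, which is 37.5% of the calls under control ASO and 60% of those under PLIN5 ASO. The share of all genes called in both was not computed, so this sharing is not shown to be particular to the carriers.

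Library composition set re-fed control ASO apart from the other groups. This group enters the re-feeding contrast under control ASO and the ASO comparison in re-fed liver. The mean deviation of long over short transcripts (over 5000 against under 1000 nt, log2 CPM) was 0.104 to 0.289 in the libraries of re-fed control ASO, against -0.421 to 0.0345 elsewhere. Members had a median longest transcript of 3145 nt, close to 3318 nt for all tested genes, with none under 1000 nt. Of the tested members 5 were over 5000 nt, among them Slc25a36 (5227 nt) and Slc25a22 (5590 nt). With the length trend taken out, 10 members were called under control ASO, where 12.0% of all genes were, and 6 under PLIN5 ASO, where 9.08% were. In that fit the ASO comparison in re-fed liver had 0 members called and 0.376% of all genes, against 1.38% in the main fit.

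**Figure D3:**
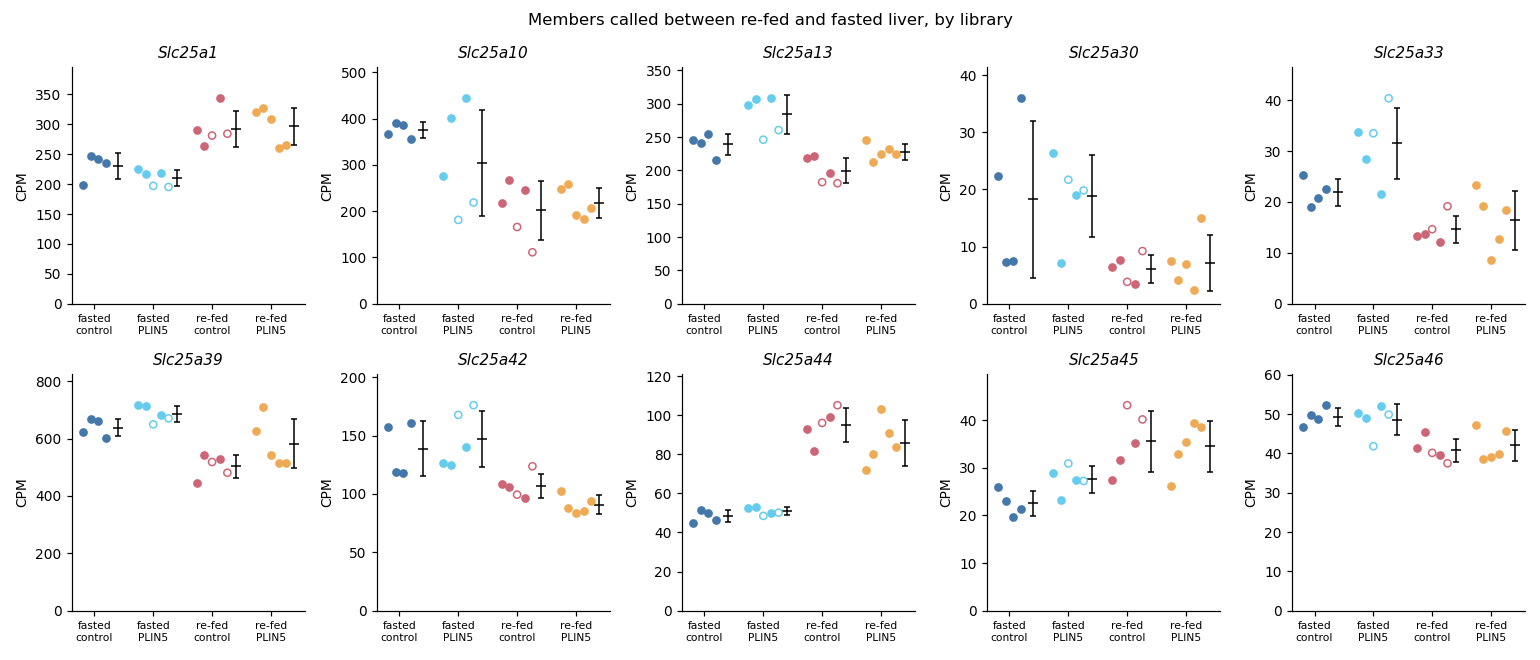
CPM in each library for the 10 members called between re-fed and fasted liver under either ASO; filled points are libraries, open points the 4 clock-shifted ones, and the bar beside each group gives mean and SD (n = 4 in fasted control ASO, 5 elsewhere). Slc25a44 and Slc25a1 are higher in every re-fed library than in every fasted library with the same ASO.

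Among citrate and dicarboxylate carriers, the citrate carrier rose under both ASOs and the dicarboxylate carrier fell under control ASO. Slc25a1 (GRCm38 chr16:17925223-17928219) moves citrate to the cytosol, where it is split into acetyl-CoA for fatty acid and sterol synthesis. It was at 199, 247, 242 and 235 CPM in fasted and 291, 264, 281, 344 and 284 CPM in re-fed control ASO. Every re-fed library was above every fasted one. The log2 change was 0.34 (SE 0.09, adjusted p = 0.0189), and 0.28 (adjusted p = 0.0771) without fasted control ASO 1, its lowest library.

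Under PLIN5 ASO Slc25a1 was at 226, 217, 197, 218 and 195 CPM fasted and 321, 327, 308, 261 and 266 CPM re-fed. Again no re-fed library reached down to a fasted one. The rise was 0.49 (SE 0.09, adjusted p = 0.00144) on the log2 scale, a 1.41-fold change, and passed in 22 of 22 alternative settings.

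Slc25a10 (GRCm38 chr11:120491840-120499187) exchanges malate and succinate for phosphate. It was at 366, 391, 387 and 357 CPM in fasted and 218, 268, 166, 247 and 111 CPM in re-fed control ASO, with no overlap and with the lowest values in the clock-shifted libraries. The log2 change was -0.89 (SE 0.24, adjusted p = 0.0187), and -0.62 (adjusted p = 0.0169) without the 4 clock-shifted libraries.

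Under PLIN5 ASO the clock-shifted libraries were on the fasted side. Slc25a10 was at 277, 400.2, 181, 444 and 219 CPM in fasted and 248, 258, 192, 184 and 206 CPM in re-fed PLIN5 ASO. The difference of -0.48 (SE 0.23, adjusted p = 0.206) did not pass, and without the clock-shifted libraries it was -0.78 and passed (adjusted p = 0.00272). The clock-shifted libraries averaged 0.535 times the others in fasted PLIN5 ASO and 0.567 times in re-fed control ASO. An opposite-strand gene, Gm11788, overlaps an exon of Slc25a10, and whether the counting used strand is not stated.

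The remaining carriers of this kind, Slc25a11 (oxoglutarate/malate) and Slc25a21, did not pass. Slc25a11 took the same split as Slc25a10: 61.0 and 65.8 CPM in the clock-shifted libraries of fasted PLIN5 ASO against 82.9 to 89.1 in the others, and 61.1 and 49.8 against 81.6 to 87.3 in re-fed control ASO.

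**Figure D4:**
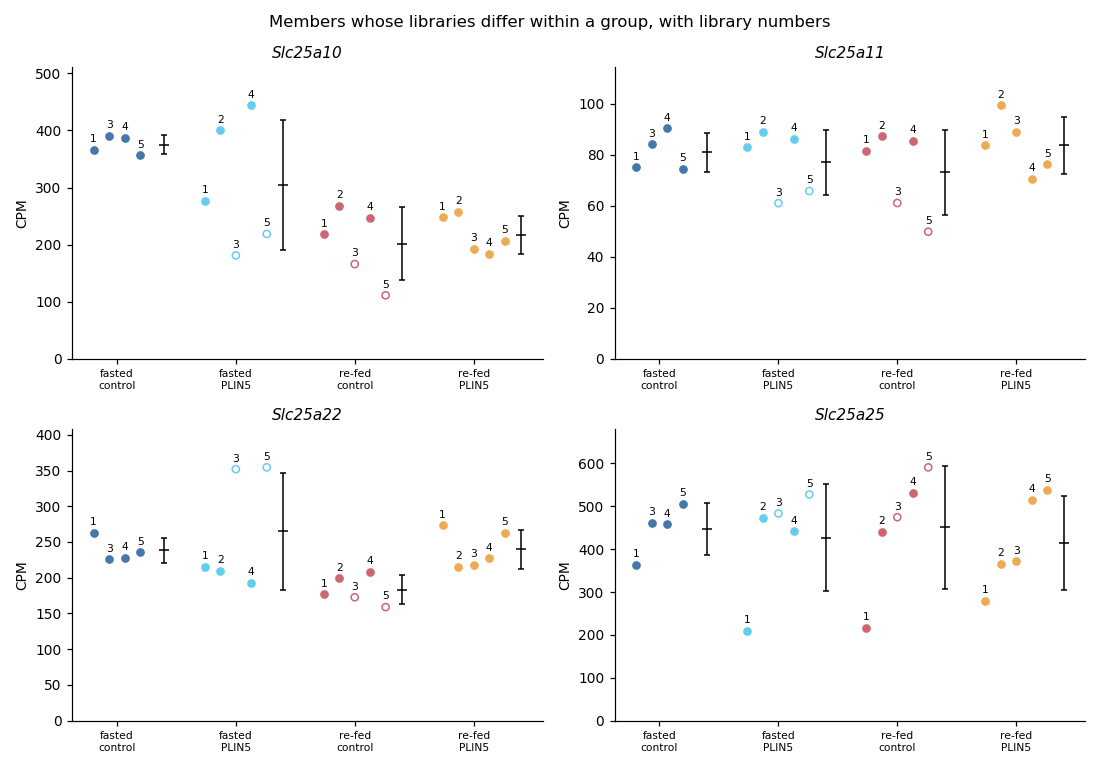
CPM by library for Slc25a10, Slc25a11, Slc25a22 and Slc25a25, with library numbers; open points are the clock-shifted libraries and the bars give mean and SD per group. Slc25a10 and Slc25a11 are lowest in open points within their groups, Slc25a22 is highest in the open points of fasted PLIN5 ASO, and Slc25a25 is lowest in library 1 of every group.

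Of the amino acid and glutathione carriers, 2 of 8 tested were called under each ASO, 1 up and 1 down. Of all genes tested, 13.2% were called under control ASO and 8.64% under PLIN5 ASO. Slc25a44 (GRCm38 chr3:88410498-88425139) carries branched-chain amino acids into mitochondria. It was at 45.1, 51.6, 49.98 and 46.5 CPM in fasted and 92.97, 81.8, 96.03, 99.2 and 105 CPM in re-fed control ASO. The lowest re-fed library exceeded the highest fasted one by a wide margin. The log2 change was 0.98 (SE 0.09, adjusted p = 5.89e-06), a 1.97-fold rise.

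With PLIN5 ASO, Slc25a44 was at 52.7, 53, 48.5, 50.03 and 50.1 CPM fasted and 72.1, 80.1, 103, 90.7 and 83.7 CPM re-fed, again without overlap. The rise was 0.76 (SE 0.09, adjusted p = 2.8e-05). It passed in every alternative setting run under both ASOs, 21 of 21 and 22 of 22, and its interaction of -0.22 (SE 0.12, adjusted p = 0.406) did not pass. It had the smallest adjusted p of the 39 members under each ASO.

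Slc25a39 (GRCm38 chr11:102402985-102407946) imports glutathione. It was at 623, 667, 661 and 603 CPM in fasted and 445, 541, 518, 528 and 481 CPM in re-fed control ASO. All re-fed libraries were lower. The change was -0.35 (SE 0.09, adjusted p = 0.0169). The call was lost without fasted control ASO 3 (adjusted p = 0.0556), without fasted control ASO 4 (0.0515), with their counts summed into a single library (0.0537) and on leaving out the clock-shifted libraries (0.0677), at log2 changes of -0.32 to -0.34.

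Under PLIN5 ASO it was at 716, 712, 649, 682 and 670.2 CPM fasted and 625, 710.1, 543, 514 and 515 CPM re-fed, where library 2 stood within the fasted range. The difference of -0.24 (SE 0.09, adjusted p = 0.0924) did not pass, and without re-fed PLIN5 ASO 2 it was -0.33 (adjusted p = 0.0130).

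Citrin, which feeds the malate-aspartate shuttle and gives aspartate to the urea cycle, fell under PLIN5 ASO. Slc25a13 (GRCm38 chr6:6041218-6217173) was at 299, 308, 246, 308 and 260.5 CPM in fasted and 246, 213, 224, 233 and 225 CPM in re-fed PLIN5 ASO, with no overlap by a margin of less than 1 CPM. The log2 change was -0.32 (SE 0.08, adjusted p = 0.0188). Under control ASO the difference of -0.26 (SE 0.09, adjusted p = 0.051) narrowly missed the threshold, with re-fed libraries at 218, 221, 182, 196 and 181 CPM; without the clock-shifted libraries it was -0.17 (adjusted p = 0.175). It passed there with DESeq2 (adjusted p = 0.0225) and when fasted control ASO 5 (0.0435), re-fed control ASO 1 (0.0390) or re-fed control ASO 2 (0.0338) was left out.

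Cofactor and nucleotide carriers gave 1 call of 9 tested under control ASO and 2 of 9 under PLIN5 ASO, all lower. Of all genes tested, 6.82% and 4.14% were called lower. Slc25a42 (GRCm38 chr8:70184340-70212305) brings coenzyme A into mitochondria in exchange for adenine nucleotides. Under control ASO it was at 158, 119, 118 and 160.4 CPM fasted and 108, 106, 99.4, 96.4 and 124 CPM re-fed, with overlap. The change was -0.38 (SE 0.12, adjusted p = 0.0435) and was no longer called without fasted control ASO 1 (adjusted p = 0.135) or 5 (0.145). The same held without re-fed control ASO 1 (0.0572), 2 (0.0649), 3 (0.0940) or 4 (0.0805). Nor was it called in the fit of the compared groups alone or in the limma fits on FPKM.

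The coenzyme A carrier fell under PLIN5 ASO too. Slc25a42 was at 126, 125, 168, 140.0 and 176 CPM fasted and 103, 88.05, 83.7, 85.5 and 94.3 CPM re-fed, where every re-fed library was lower. The change was -0.69 (SE 0.11, adjusted p = 0.000737), and -0.52 (adjusted p = 0.00710) without the clock-shifted libraries, which are its highest fasted ones. The difference between the ASOs in this response, -0.32 (SE 0.17, adjusted p = 0.374), did not pass, and was -0.10 (adjusted p = 0.874) without the clock-shifted libraries.

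Slc25a33 (GRCm38 chr4:149744036-149774277) carries pyrimidine nucleotides and is known to respond to insulin signalling. It was at 33.8, 28.4, 33.5, 21.6 and 40.4 CPM in fasted and 23.3, 19.1, 8.57, 12.8 and 18.3 CPM in re-fed PLIN5 ASO, with an overlap of 1 library. The change was -0.94 (SE 0.21, adjusted p = 0.00799). Under control ASO it was at 25.3, 19, 20.8 and 22.6 CPM fasted and 13.2, 13.8, 14.7, 12.2 and 19.2 CPM re-fed, and the difference of -0.59 (SE 0.22, adjusted p = 0.0818) did not pass there. An opposite-strand gene, Gm13068, overlaps an exon of Slc25a33.

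The peroxisomal carrier of coenzyme A and related cofactors, Slc25a17, was at 48.1, 49.1, 50.04 and 53.1 CPM in fasted and 58.6, 50.4, 60.8, 57.8 and 75.8 CPM in re-fed control ASO. Its highest value was in a clock-shifted library, re-fed control ASO 5. The difference of 0.28 (SE 0.10, adjusted p = 0.0707) did not pass, and was 0.15 (adjusted p = 0.344) without the clock-shifted libraries. Without re-fed control ASO 2 it was 0.34 and passed (adjusted p = 0.0277).

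Slc25a30, an uncoupling-protein-like carrier, gave the largest fold among the called members and the largest standard error. Slc25a30 (GRCm38 chr14:75760117-75787037) was at 22.3, 7.33, 7.47 and 35.9 CPM in fasted and 6.42, 7.67, 3.84, 3.55 and 9.22 CPM in re-fed control ASO. Fasted libraries 3 and 4 were within the re-fed range, and libraries 1 and 5 far above it. The log2 change was -1.57 (SE 0.51, adjusted p = 0.047). It was -1.02 (adjusted p = 0.214) without fasted control ASO 5. It was also not called without fasted control ASO 1 (0.104) or re-fed control ASO 1 (0.0702), 2 (0.0569), 3 (0.105) or 4 (0.0869). Without the clock-shifted libraries it was -1.64 (0.125). Nor was it called with no low-count filter, in the fit of the compared groups alone or in the limma fits on FPKM.

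Under PLIN5 ASO Slc25a30 was at 26.3, 7.07, 21.7, 19.1 and 19.8 CPM fasted and 7.40, 4.08, 6.98, 2.33 and 14.9 CPM re-fed. The difference of -1.36 (SE 0.48, adjusted p = 0.0857) did not pass; without re-fed PLIN5 ASO 5 it was -1.85 (adjusted p = 0.0286). The other tested members of this kind, Slc25a14 and Slc25a27, were at low levels and did not pass.

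In the group with other or unsettled substrates, Slc25a45 rose and Slc25a46 fell under control ASO. Slc25a45 (GRCm38 chr19:5877808-5885878) was at 25.97, 23.1, 19.7 and 21.4 CPM fasted and 27.4, 31.7, 43.2, 35.3 and 40.2 CPM re-fed, with no overlap and the highest values in the clock-shifted libraries. The change was 0.66 (SE 0.13, adjusted p = 0.00332), and 0.48 (adjusted p = 0.0385) without those. Under PLIN5 ASO it was at 28.99, 23.3, 30.9, 27.5 and 27.2 CPM fasted and 26.3, 32.9, 35.4, 39.5 and 38.6 CPM re-fed, a difference of 0.32 (SE 0.12, adjusted p = 0.117) that did not pass. Without re-fed PLIN5 ASO 1 it was 0.41 (adjusted p = 0.0398).

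Slc25a46, an outer-membrane member that acts in mitochondrial shape and not as a known transporter, was at 46.8, 49.8, 48.8 and 52.3 CPM in fasted and 41.5, 45.4, 40.2, 39.6 and 37.5 CPM in re-fed control ASO. All re-fed libraries were lower in CPM, by a small margin. In FPKM the groups overlapped, with re-fed control ASO 2 at 10.28 and fasted control ASO 1 at 10.17. The change was -0.28 (SE 0.08, adjusted p = 0.0274). It was not called without fasted control ASO 3 (adjusted p = 0.0671), 4 (0.0568) or 5 (0.0829), without re-fed control ASO 3 (0.0567) or 5 (0.0675), with fasted control ASO 3 and 4 summed into a single library (0.0615), or without the clock-shifted libraries (0.102). The limma fits on FPKM did not call Slc25a46 either. An opposite-strand gene, B930094E09Rik, overlaps an exon. Under PLIN5 ASO it was at 50.2, 49.03, 41.9, 52.1 and 49.9 CPM fasted and 47.2, 38.7, 39.01, 39.8 and 45.6 CPM re-fed, and the difference of -0.21 (SE 0.08, adjusted p = 0.0931) did not pass. It passed without fasted PLIN5 ASO 3 (adjusted p = 0.0388) or re-fed PLIN5 ASO 1 (0.0468).

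The liver-enriched Slc25a47 was the most abundant member and did not pass in any comparison. It was at 478, 871, 881 and 721 CPM in fasted control ASO and 733, 851, 436, 799 and 608 CPM in re-fed control ASO, a spread wider than the difference of -0.11 (SE 0.20, adjusted p = 0.774). Under PLIN5 ASO it was at 646, 919, 598, 799.6 and 756 CPM fasted and 801, 901, 599, 611 and 549 CPM re-fed, a difference of -0.10 (SE 0.19, adjusted p = 0.79). Without the clock-shifted libraries these differences were 0.11 and -0.19, again with no call.

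None of the 6 adenine nucleotide, phosphate and ATP-Mg carriers tested passed under control or PLIN5 ASO, where 13.2% and 8.64% of all genes did. Slc25a5 averaged 333 ± 47.4 CPM (SD, n = 4) in fasted and 319.9 ± 28.4 CPM (n = 5) in re-fed control ASO, a log2 difference of -0.06 with a 95% interval of -0.29 to 0.18. Under PLIN5 ASO the interval was -0.04 to 0.40. Slc25a23 differed by 0.02 (95% interval -0.19 to 0.24) under control ASO and by 0.20 (-0.01 to 0.40) under PLIN5 ASO. Its values in the clock-shifted libraries were 411 and 425 CPM against 474 to 567 in fasted PLIN5 ASO, and 647 and 593 CPM against 473 to 523 in the re-fed group with control ASO. Without the clock-shifted libraries Slc25a23 was at -0.11 and 0.07, and Slc25a5 at 0.01 and 0.07, with no call.

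Neither mitoferrin passed. Slc25a28 differed by -0.26 (SE 0.09, adjusted p = 0.0664) under control ASO and by -0.12 (SE 0.09, adjusted p = 0.431) under PLIN5 ASO. Without re-fed control ASO 4 its difference under control ASO was -0.33 and passed (adjusted p = 0.0222). Slc25a37 differed by -0.05 and 0.10, with 95% intervals of -0.44 to 0.35 and -0.28 to 0.47; in fasted PLIN5 ASO its clock-shifted libraries were at 33.2 and 36.1 CPM against 56.6 to 73.3 in the others. Without the clock-shifted libraries both Slc25a37 values turned sign, to 0.05 and -0.20, and Slc25a28 was at -0.24 and -0.20, with no call.

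Whether the re-feeding response itself differed between the ASOs was tested by the interaction. None of 39 members passed, where 0.0226% of all genes tested did (3 genes). At an unadjusted p under 0.05 there were 2 members (5.13%, against 15% of all genes tested). DESeq2 called 0, where it called 0.694% of all genes it tested. The members with the smallest p were Slc25a36 at -1.12 (SE 0.44, adjusted p = 0.269), Slc25a17 at -0.32 (SE 0.14, adjusted p = 0.29) and Slc25a42 at -0.32 (SE 0.17, adjusted p = 0.374). Members called under one ASO alone are therefore not shown to differ between them: the interaction for Slc25a10 was 0.41 (SE 0.33, adjusted p = 0.574), for Slc25a33 -0.35 (SE 0.30, adjusted p = 0.598) and for Slc25a45 -0.33 (SE 0.18, adjusted p = 0.395). These estimates moved without the clock-shifted libraries, to -0.16 for Slc25a10, which turned sign, -0.02 for Slc25a33 and -0.10 for Slc25a45 (adjusted p = 0.832, 0.991 and 0.892). Without them Slc25a36 was at -1.43, Slc25a17 at -0.23 and Slc25a42 at -0.10 (adjusted p = 0.409, 0.585 and 0.874).

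Over the 39 members, 25 had a log2 difference of the same sign under both ASOs, with Pearson r = 0.714 and Spearman rho = 0.666 between these log2 differences. These are descriptions across genes of the same libraries, which are not independent, though no library enters both contrasts. The same values over all genes tested were not computed, so they are not shown to be particular to the carriers. A change of at least 2-fold was seen for 1 member under each ASO, Slc25a30 in both.

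**Figure D5:**
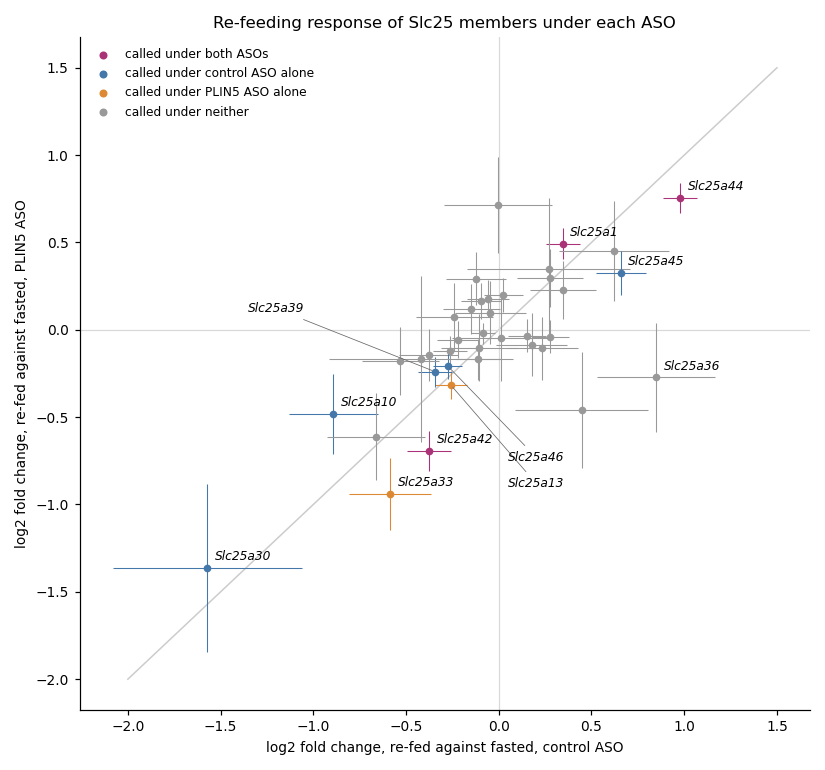
Log2 fold change of re-fed against fasted liver under control ASO (x axis) and PLIN5 ASO (y axis) for 38 of the 39 members, with bars of 1 SE; the line marks equal change. Slc25a44 and Slc25a1 lie in the upper right, Slc25a42, Slc25a33, Slc25a10 and Slc25a30 in the lower left, and Slc25a36 is farthest below the line.

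Genes around the carriers gave this setting. Of 10 enzymes that work on either side of the shuttles, 4 rose on re-feeding under control ASO (Acly, Me1, Cs and Gpd2) and 4 under PLIN5 ASO (Acly, Me1, Cs and Got1), and 0 fell. Of all genes tested, 6.42% were called higher under control ASO and 4.50% under PLIN5 ASO. The list was chosen with earlier results known. Acly, the cytosolic enzyme that splits the citrate Slc25a1 exports, changed on the log2 scale by 2.28 (SE 0.22, adjusted p = 5.89e-06) under control ASO and 1.59 (SE 0.20, adjusted p = 5.47e-05) under PLIN5 ASO. Cs, mitochondrial citrate synthase, changed by 0.32 (SE 0.09, adjusted p = 0.021) and 0.41 (SE 0.08, adjusted p = 0.00351).

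Of the 9 tested genes for the pyruvate carrier, sideroflexins and outer-membrane channels, Mpc2, a pyruvate carrier subunit, and Sfxn3, a serine transporter, fell under control ASO, and 0 were called under PLIN5 ASO. Mpc2 changed by -0.49 (SE 0.09, adjusted p = 0.00105) and Sfxn3 by -0.62 (SE 0.20, adjusted p = 0.0427). Of all genes tested, 6.82% were called lower under control ASO and 4.14% under PLIN5 ASO. Of 9 tested genes for the import of carrier proteins, Tomm70a, the outer-membrane receptor for them, fell under both, with log2 changes of -0.30 (SE 0.07, adjusted p = 0.00531) and -0.30 (SE 0.06, adjusted p = 0.00482), and no other was called. None of the 3 tested carrier-family genes with other names, Ucp2 among them, was called in any of the 5 comparisons. In the fasted and re-fed ASO comparisons and the interaction 0 genes of these lists were called, where 1.17%, 1.38% and 0.0226% of all genes were.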

How the data were processed

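Total RNA of mouse liver was sequenced in 19 libraries. The authors deposited whole-number read counts per gene symbol and FPKM per gene symbol, both used as deposited; the submitters' processing notes list HISAT2 2.0.2, Subread, Cuffdiff 2.2.1, FastQC and edgeR, and the builds mm10 and GRCm38, with no roles. Strand setting and treatment of multi-mapping reads: not stated.

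Counts were tested in R 4.3.3 with edgeR 4.0.16: TMM scaling, filterByExpr by group (minimum count 10), 1 fit of 19 libraries with a mean per group, two-sided quasi-likelihood F tests, and Benjamini-Hochberg adjustment over 13293 genes at 0.05. "Called" and "passed" mean an adjusted p under 0.05. Tested genes held at least 99.96% of counts, and the biological coefficient of variation was 19.3%. Levels are CPM, with SD between libraries; deposited FPKM served for levels between genes. The fit was also run on simulated data.

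Members, lists, markers and alternatives were chosen with earlier results of these data known, so no p-value was adjusted over the members alone. Named members were those called in a pairwise comparison, the 2 with the highest mean FPKM of each role and the 3 with the smallest interaction p; others are named as examples of a level or spread, chosen after their values were seen. Alternatives were RLE size factors, no filter or a stricter one, DESeq2 1.42.0, a replicate block, a fit of the compared groups alone, each library left out, fasted control ASO 3 and 4 as 1 sample, the 4 clock-shifted libraries left out, a length trend removed in 25 bins, and limma 3.58.1 on log2(FPKM + 1) or (FPKM + 0.1), unfiltered or kept at a mean FPKM of 0.5 upward. Gene positions are from GENCODE on GRCm38 and promoters from RefSeq (GRCm38.p6), matched by symbol. A single member is counted in all totals, and its own values are not reported here.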

Additional observations from a re-analysis of the deposited data

Results flagged for a closer look

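In fasted control ASO, Slc25a23 was at 485.8 CPM in library 1 and at 547, 556 and 559 CPM in the other 3, a gap large for a group of 4. It was the only one of 76 groups (19 named members in 4 groups) to stand out by this measure, 1.32%, where chance gives about 1 in 20. Slc25a23 was called in no comparison, and its part in other results was not tested.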

How the results depend on the processing

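Percentages in brackets give the share of all genes tested in the same fit that were called. In fasted liver the PLIN5 ASO comparison had 0 members called (1.17%), 2 with DESeq2 (3.12%) and 1 without the clock-shifted libraries (0.866%). In re-fed liver it had 0 (1.38%), and 1 with DESeq2 (5.18%). Re-feeding under control ASO had 8 calls (13.2%), and 5 to 8 with each library left out (8.26% to 13.8%). There were 5 without fasted control ASO 1 (9.41%) and 5 without re-fed control ASO 3 (9.43%). Leaving out the clock-shifted libraries gave 5 (8.78%), and limma on unfiltered log2(FPKM + 1) gave 5 (8.98%). Under PLIN5 ASO there were 5 (8.64%), and 5 to 8 with each library left out (5.59% to 8.81%). There were 8 without fasted PLIN5 ASO 4 (7.51%) and 8 without re-fed PLIN5 ASO 1 (8.81%). The replicate block gave 12 calls under control ASO and 6 under PLIN5 ASO. Whether the numbers pair the libraries is not stated. Same-numbered pairs had r of -0.212 to 0.375, with 10 of 27 over 0.1, a count not given for other pairs. The highest r joined 2 clock-shifted libraries, fasted PLIN5 ASO 5 and re-fed control ASO 5. The median of same-numbered pairs was 0.0579, against -0.0202 for pairs of other numbers, and these values do not settle the pairing. No sign of a called value reversed. Under control ASO Slc25a10, Slc25a44 and Slc25a45 were called in 21 of 21 alternatives, Slc25a1 in 20, Slc25a39 in 17, Slc25a42 and Slc25a46 in 11 and Slc25a30 in 9; the 5 calls under PLIN5 ASO held in 22 of 22. Where a call changed, the cause was not tested. Low counts limit Slc25a36, Slc25a2 and Slc25a18.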

Other observations

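The ATP-Mg/phosphate carrier Slc25a25 was lowest in library 1 of all 4 groups, at 363, 210.1, 216 and 280.2 CPM in fasted control, fasted PLIN5, re-fed control and re-fed PLIN5 ASO. All other libraries were at 366 CPM or more. It was the only one of the 41 members with library 1 lowest in every group. Slc25a23 had library 1 lowest in 3 groups, and Slc25a34 had it highest in 3. The labels do not say what a replicate number shares across groups. Naif1 overlaps an exon of Slc25a25 on the opposite strand.

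The most abundant member and a rare one are neighbours. Slc25a47 and Slc25a29, a carrier of basic amino acids, lie on opposite strands of chromosome 12 with 162 bp between them, and averaged 451 and 1.56 FPKM.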
